A study of Mus musculus with 3 samples.

Results

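MAPK feedback genes, which restrain or report on signalling through the mitogen-activated protein kinase (MAPK) cascade, were read in single cells of mouse lung.
They were chosen by symbol: Dusp4, Dusp5, Dusp6, Spry1, Spry2, Spry4, Spred1, Spred2, Etv4 and Etv5, 10 of the 32285 genes in the files, and all 10 had at least 1 unique molecular identifier (UMI, a tag that marks 1 captured mRNA molecule) in each library.
All mice carried Ccsp-rtTA and a doxycycline-driven (TetO) lung cancer-associated mutant of EGFR, were 16 to 20 weeks old and, per the labels, ate doxycycline chow at 625 ppm.
The labels list these transgenes alone for the WT healthy group, which the series' design text names as littermate controls free of disease. The WT tumour group also had both Pparg alleles floxed, and the PPARg-/- tumour group had the floxed alleles with Csf1rCre, which places Cre in the monocyte and macrophage lineage.
Ccsp-rtTA is driven by the promoter of a club cell secretory protein, so the EGFR mutant is switched on in lung epithelium.
Each group was 1 library pooled from 3 mice, so there is no replicate and no test between groups. Alveolar macrophages, CD11b+ macrophages, T cells and EPCAM+ epithelium had been sorted and mixed in equal parts.

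A receptor tyrosine kinase such as EGFR passes its signal through RAS, RAF, MEK and ERK, and active ERK switches on genes that then damp the same route.
The Dusp genes encode phosphatases that remove the activating phosphates from MAP kinases: DUSP6 acts on ERK in the cytoplasm, DUSP5 on ERK in the nucleus, and DUSP4 is a nuclear phosphatase of broader range.
Sprouty (Spry) and Spred proteins act higher up, between the receptor and RAF, and Spred proteins bring the RAS inactivator neurofibromin to the membrane.
Etv4 and Etv5 encode ETS transcription factors that are induced by this pathway, and Etv5 is known for its part in keeping the identity of alveolar type 2 (AT2) cells, which make surfactant.
In the GENCODE annotation of GRCm38 the phosphatase genes lie at chr8:34807297-34819894 (Dusp4), chr19:53529109-53542431 (Dusp5) and chr10:99263231-99267489 (Dusp6), all on the plus strand.
The Sprouty and Spred genes lie at chr3:37639947-37644598 (Spry1, plus), chr14:105891947-105896819 (Spry2, minus), chr18:38586247-38601415 (Spry4, minus), chr2:117121374-117182279 (Spred1, plus) and chr11:19924375-20024026 (Spred2, plus).
Etv4 lies at chr11:101769742-101785371 and Etv5 at chr16:22381309-22439719, both on the minus strand. UMIs were counted per gene and not per exon or isoform.

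Where 3 values are given together, they stand in this order: WT healthy, then WT tumour, then the tumour library with PPARg-/-. The libraries held 30454790, 46148658 and 44548318 UMIs. Filters left 2894, 4268 and 4995 cells, with median depths of 5563, 4773.5 and 3457 UMIs.
Pairs of libraries shared 4 to 6 cell barcodes.
The female-specific RNA Xist stood at 1233, 0.177 and 0.305 CPM (UMIs per 1000000), and the Y-linked Ddx3y at 0.131, 81.7 and 74.5 CPM, although the labels say that both sexes were used. Sex and tumour cannot be told apart in any comparison with WT healthy.
Levels are CPM throughout, the UMIs of a gene summed over the cells of a class and scaled to 1000000 UMIs of that class, with exact 95% Poisson intervals in brackets. A lower level can mean fewer molecules in each cell or fewer cells that hold the gene. These intervals cover counting error only and not differences between cells or between mice.
Cells were clustered without the 10 genes, and names rest on marker genes, so that a name stands for cells like that type.
AT2 cells raised 11 of 12 AT2 markers and numbered 41, 177 and 169.
AT1 cells, the flat gas-exchange epithelium, numbered 7, 84 and 31. A further epithelial class, called Krt8-high here, numbered 0, 64 and 7, and club-like cells 0, 12 and 8. The cluster that held the Krt8-high class raised 10 of 12 AT2, 10 of 12 AT1 and 5 of 11 club or secretory markers. Krt8 was on none of these lists, so Krt8-high is a label and not a measured trait.
Endothelial cells (220, 249 and 384) lie outside every sort gate but raised at least 11 of 12 endothelial markers.
When the epithelium was clustered alone, 16, 6 and 14 AT2 cells fell in a subcluster that, over all libraries, raised markers of other lineages. The pan-leukocyte gene Ptprc stood at 427, 198 and 222 CPM in them. Leaving the subcluster out took Ptprc in the AT2 cells of WT healthy from 79.0 to 4.18 CPM but not Pecam1, an endothelial gene, whose 23 UMIs in WT healthy AT2 cells all lay outside the subcluster and 22 of them in 1 cell. Summed over 12 endothelial markers, the AT2 cells left held 175, 14.8 and 24.2 CPM, with 5, 5 and 2 of the markers at 0. A stricter set, AT2 cells with no UMI of Ptprc or Pecam1 (32, 160 and 150 cells), held 63.2, 17.7 and 23.4 CPM of them, so that WT healthy stayed highest. Against WT healthy, the ratios of Dusp6, Spred1, Spry1 and Etv5 in AT2 cells are given in all 3 sets. Ratios of other genes and the counts by pathway list are for all AT2 cells alone.

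Orders of classes are given among classes of at least 30 cells. Among the phosphatases, Dusp5 was highest in nonclassical monocytes, the patrolling blood monocytes, in every library. Its levels there were 369 (336 to 405), 390 (360 to 422) and 159 CPM (146 to 172), 1.86-, 3.54- and 2.99-fold above the next class.
PPARg-/- tumour lay below the other two libraries, whose intervals overlapped.
A small mixed cluster of granulocytes, of 21, 18 and 27 cells, held more Dusp5: 423, 730 and 336 CPM from 35, 37 and 18 UMIs.
AT2 cells held little Dusp5, with 4, 16 and 13 UMIs.
Dusp6 was spread over more classes. In WT healthy it was highest in nonclassical monocytes (264 CPM, 236 to 295), whose interval overlapped that of classical monocytes (249), and in PPARg-/- tumour the same order held (190 and 171 CPM) with overlap.
In WT tumour, endothelial cells led at 344 CPM (311 to 380), 1.41-fold above nonclassical monocytes and without overlap.
Interstitial macrophages stand here for C1q-positive cells with markers of interstitial or monocyte-derived macrophages. They held 157 (115 to 207), 131 (112 to 151) and 168 CPM (125 to 221) of Dusp6. The cell with most held 18 of 48, 7 of 182 and 14 of 50 of these UMIs.
Dusp4 was rare: 52, 108 and 54 UMIs in the 3 libraries, counted before barcodes marked as doublets were removed. B cells led in WT healthy and T cells with regulatory T cell markers in the tumour libraries, in each case with overlap with the next class. The T cells with regulatory markers held 9.94, 39.6 and 15.9 CPM, B cells 17.6, 24.3 and 7.14 CPM (7, 5 and 3 UMIs) and AT2 cells 10.3, 13.3 and 11.4 CPM (3, 36 and 29 UMIs). Of its 15 UMIs in the main macrophages of WT healthy, 14 lay in 1 cell.

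The promoter sequences of Dusp5 and Dusp6 are shown because these genes differed between libraries in the most classes. Of the 10 members, 7 had a promoter in the RefSeq table (GRCm38.p6).
The letters of known motifs were searched on both strands in the 250 bases before the RefSeq start: the ETS core CGGAAG (bound by factors such as ETV4 and ETV5), the cyclic AMP element TGACGTCA, the AP-1 site TGANTCA and the CArG box of serum response factor. Capitals mark the matches.
The Dusp5 stretch is chr19:53528895-53529108, plus strand, and stops before the gene start in the GENCODE annotation. The Dusp6 stretch is chr10:99262981-99263230, plus strand.
Dusp5: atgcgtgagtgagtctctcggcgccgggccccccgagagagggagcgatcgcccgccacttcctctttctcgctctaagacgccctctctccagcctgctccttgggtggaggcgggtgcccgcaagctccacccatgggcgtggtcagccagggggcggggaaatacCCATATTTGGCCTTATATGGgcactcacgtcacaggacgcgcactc
Dusp6: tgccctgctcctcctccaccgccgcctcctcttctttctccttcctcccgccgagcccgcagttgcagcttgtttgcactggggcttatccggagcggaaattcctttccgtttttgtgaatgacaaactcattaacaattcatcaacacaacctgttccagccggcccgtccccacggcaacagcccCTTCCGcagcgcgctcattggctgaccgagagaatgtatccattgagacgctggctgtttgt
Dusp5 held 2 CArG boxes side by side, at 82 to 73 and 72 to 63 bases before the RefSeq start. Of 32851 promoter windows of 250 bases, 1.47% held a CArG box and 6 windows held at least 2.
Dusp6 held 1 ETS core on the minus strand, 62 to 57 bases before the RefSeq start, as 13.6% of all windows did. Spred1 and Spred2 held 1 each (17 to 12 and 43 to 38 bases before the RefSeq start). The Spred2 match lies inside the gene as GENCODE places it.
TGACGTCA and TGANTCA, held by 1.55% and 6.75% of all windows, were in none of the members' windows. A match describes the letters of a window and is no evidence of binding.

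Of the Sprouty genes, Spry4 was an endothelial gene in these libraries, at 36.9 (26.2 to 50.5), 147 (126 to 171) and 67.9 CPM (54.7 to 83.3).
The next class was 6.21- and 15.9-fold lower in WT healthy and WT tumour. In PPARg-/- tumour it was NK cells with 1 UMI, whose interval overlapped.
No Spry4 UMI was seen in 41 WT healthy AT2 cells, where 3 counts would be 10.3 CPM, and the tumour AT2 cells held 9.27 and 10.6 CPM (25 and 27 UMIs). A difference could not be seen at that depth, so no fold is given.
Spry1 was an alveolar epithelial gene. AT2 cells held 162 CPM (119 to 215), 116 (104 to 130) and 153 (138 to 169), and AT1 cells of the 2 tumour libraries 164 (133 to 200) and 207 (144 to 288).
In WT healthy the AT2 level was 7.42-fold above the next class, endothelial cells, and in WT tumour AT1 cells exceeded AT2 cells 1.41-fold without overlap of the intervals.
Spry2 was held by AT2 cells (110, 135 and 93.8 CPM), by the Krt8-high epithelium of WT tumour (130 CPM, 109 to 155) and by natural killer (NK) cells (190, 159 and 104 CPM from 64, 11 and 8 UMIs). Neighbours in that order overlapped in all 3 libraries.

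Spred1 was highest in AT2 cells in each library among classes of at least 30 cells, at 141 CPM (101 to 191), 216 (199 to 234) and 179 (163 to 197).
The next classes were close: dendritic cells in WT healthy at 88.2 CPM and the Krt8-high epithelium in WT tumour at 205 CPM overlapped the AT2 interval, whereas nonclassical monocytes of PPARg-/- tumour, at 146 CPM, did not.
Spred2 was lower and flatter, with AT2 cells first at 48.1, 43.7 and 43.2 CPM and overlap with the next class in all 3.

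Etv5 was an AT2 gene in all 3 libraries. AT2 cells held 471 (395 to 557), 321 (300 to 343) and 335 CPM (313 to 358), 13.1-, 7.67- and 16.6-fold above the next class.
That next class was interstitial macrophages in WT healthy (35.9 CPM) and the Krt8-high epithelium in WT tumour (41.8 CPM).
AT1 cells held 4 and 1 UMIs of Etv5, and the club-like cells none in 98721 and 145059 UMIs of that class, where 3 counts would be 30.4 and 20.7 CPM.
The 9 and 7 cycling AT2 cells of the tumour libraries held 298 (230 to 381) and 216 CPM (142 to 314).
Etv4 was seen as 1, 53 and 21 UMIs in the 3 libraries, counted before barcodes marked as doublets were removed. In AT2 cells there were 0, 27 and 19 UMIs, and in Krt8-high cells of WT tumour 13, or 12.95 CPM (6.90 to 22.1), beside 10.0 CPM (6.59 to 14.6) in AT2 cells of that library.
As for Spry4, 3 counts in the WT healthy AT2 cells would be 10.3 CPM, and the exact 95% upper limit of 0 UMIs is 12.7 CPM.

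**Figure D1:**
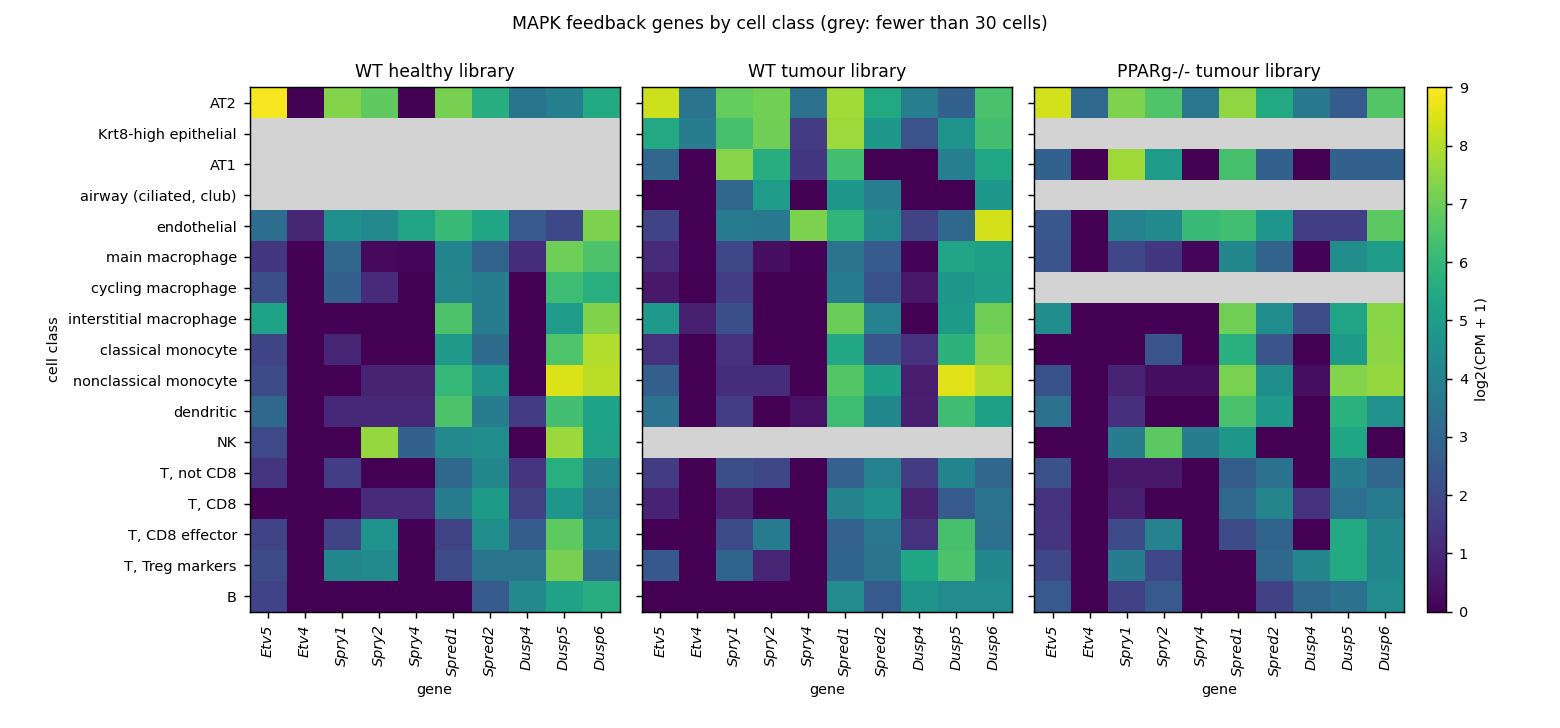
Level of each gene (columns) in each cell class (rows), as log2(CPM + 1), 1 panel per library; grey rows had fewer than 30 cells. Etv5 and Spry1 are bright in AT2 cells, Spry4 in endothelial cells and Dusp5 in nonclassical monocytes in all 3 panels.

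Classes were compared where both libraries held at least 30 of their cells. A gene is called higher or lower below where its CPM ratio was at least 1.5-fold with an exact 95% interval that excludes 1, and where it had at least 20 UMIs in the 2 libraries together. Such a call states a size with its counting error and is no test of the groups.
For WT tumour over WT healthy, 55 of 130 member and class pairs in 13 classes had enough UMIs. Of these 6 were higher and 13 lower, 19 in all or 34.5%, where the same rule called 13.5% of all gene and class pairs (5.61% higher and 7.91% lower).
For PPARg-/- tumour over WT tumour, again 55 pairs had enough UMIs, and 4 were higher and 10 lower, 25.5% against 10.6% of all pairs (4.88% higher and 5.74% lower).
The 2 comparisons share the WT tumour library, so their values are given side by side and not set against each other.

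In AT2 cells, the epithelium from which these tumours can arise, WT tumour over WT healthy had 2 of 10 members higher and none lower, beside 13.2% of all genes called.
The median log2 ratio of all 10 members was 0.33 with the 2 members at 0 UMIs in WT healthy ranked above the rest. With those 2 set to 3 counts it was -0.09, beside 0.06 over all genes with UMIs in both libraries.
Dusp6 held 44.7 CPM in WT healthy (13 UMIs, 6 of them in 1 cell) and 83.8 CPM in WT tumour (226 UMIs), a log2 ratio of 0.91 (0.10 to 1.84), or 1.75 without the cell that held most in each library.
Spred1 was 1.53-fold higher, log2 0.61 (0.16 to 1.11).
Without the subcluster that raised markers of other lineages, which left 25 and 171 cells, neither was called: log2 0.72 (-0.11 to 1.70) for Dusp6 and 0.44 (-0.04 to 0.95) for Spred1. Among AT2 cells with no UMI of Ptprc or Pecam1, Dusp6 was called, at 0.93 (0.0230 to 2.01), and Spred1 was not, at 0.40 (-0.09 to 0.93). Spred1 was also not called with median-ratio scaling, at 0.54.
Without the subcluster Spry1 (192 and 117 CPM) and Etv5 were called lower instead, at log2 -0.72 (-1.17 to -0.23) and -0.73 (-1.0005 to -0.45). In all AT2 cells their ratios had been -0.47 (-0.92 to 0.00152) and -0.55 (-0.81 to -0.28), the first with an interval that includes 0 and the second short of 1.5-fold. In the cells with no UMI of Ptprc or Pecam1, Spry1 was not called, at -0.45 (-0.96 to 0.09), and Etv5 was, at -0.76 (-1.04 to -0.46). The part of immune and endothelial RNA in the AT2 values of WT healthy was not tested.
Etv5 was also called lower with each library clustered alone (-0.92), after thinning to 1000 UMIs a cell (-0.84) and with median-ratio scaling (-0.63).
Spry2, at log2 0.29 (-0.23 to 0.86), and Spred2, at -0.14 (-0.94 to 0.78), were not called in all AT2 cells.
The mouse Egfr gene stood at 10.3 CPM (3 UMIs) and 63.0 CPM (170 UMIs), log2 2.61 (1.04 to 4.90). Whether transcripts of the EGFR transgene are counted there cannot be told from these counts.

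Between the 2 tumour libraries no member was called in AT2 cells, 0 of 10 beside 8.63% of all genes, with a median log2 ratio of -0.12 beside -0.10 over all genes.
Etv5 differed by log2 0.06 (-0.08 to 0.20), Spred2 by -0.02 (-0.41 to 0.37) and Dusp6 by 0.19 (-0.07 to 0.46), so that these intervals leave out a 1.5-fold difference in either direction.
Spry2 stood at -0.52 (-0.76 to -0.28), and Spry1 at 0.39 (0.17 to 0.61), both short of 1.5-fold. With each library clustered alone Spry2 was called lower, at -0.60.
In AT1 cells 4 members had enough UMIs, and Dusp6 was called lower with 1 UMI in 31 PPARg-/- tumour cells and 23 UMIs in 84 WT tumour cells, log2 -2.74 (-8.11 to -0.12), beside 12.9% of all genes called. Of the 23 UMIs, 9 lay in 1 cell.
Spry1, the main member in AT1 cells, differed by 0.34 (-0.26 to 0.91).

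**Figure D2:**
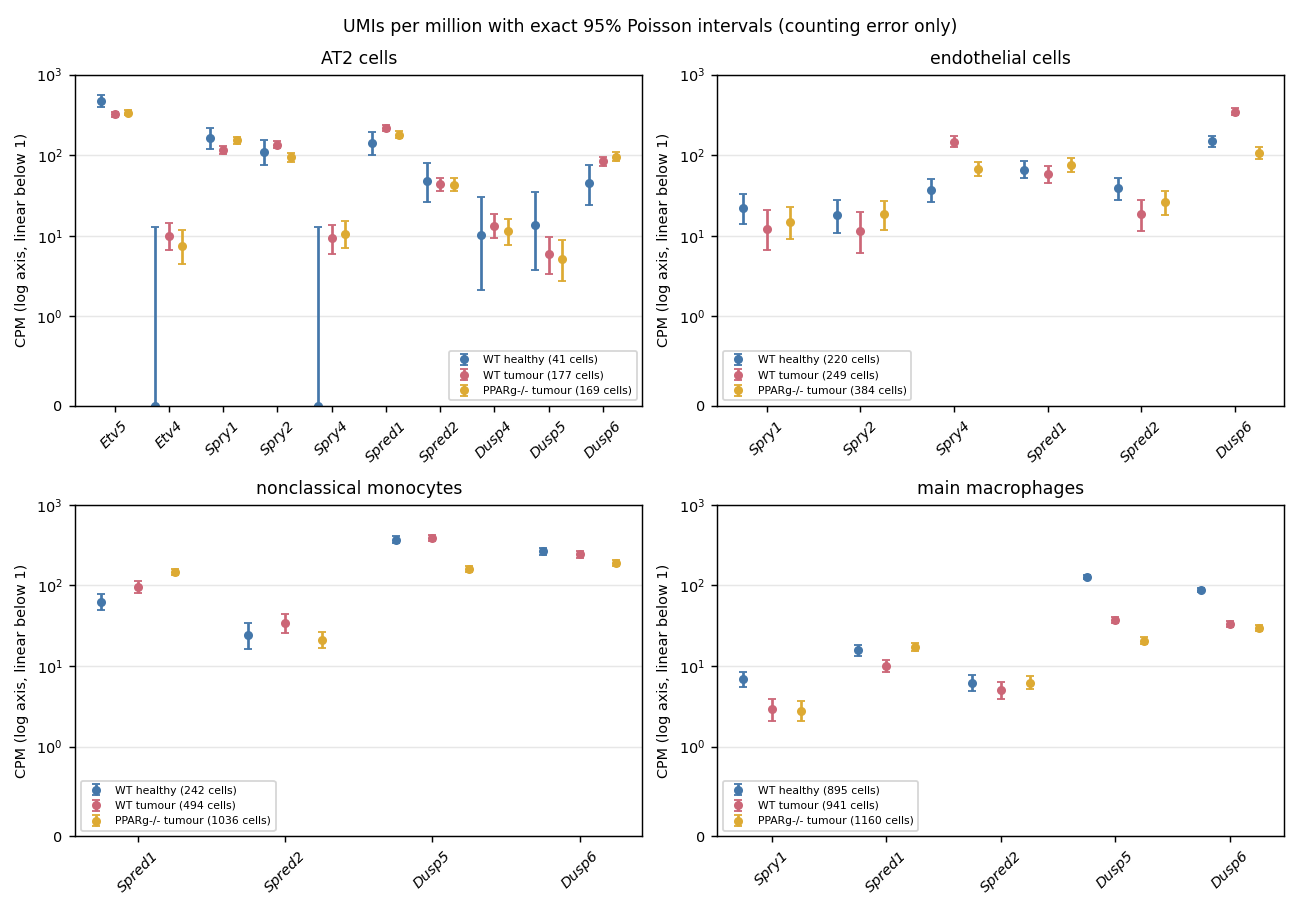
CPM of the members (x axis) in 4 classes with exact 95% Poisson intervals; blue WT healthy, red WT tumour, yellow PPARg-/- tumour; log axis, linear below 1. The AT2 levels of the 2 tumour libraries lie close together, whereas endothelial Dusp6 and Spry4 are highest in WT tumour and macrophage Dusp5 is lower at each step in the order WT healthy, WT tumour, PPARg-/- tumour.

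In endothelial cells, which line blood vessels and use ERK signalling downstream of VEGF receptors, 6 members had enough UMIs. Dusp6 stood at 150 (127 to 175), 344 (311 to 380) and 106 CPM (89.0 to 124).
WT tumour was above both others without overlap: log2 1.20 (0.93 to 1.48) over WT healthy, and PPARg-/- tumour over WT tumour was -1.70 (-1.99 to -1.42).
Spry4 took the same course, 3.98-fold higher in WT tumour than in WT healthy, log2 1.99 (1.48 to 2.54), and lower by log2 -1.11 (-1.50 to -0.74) in PPARg-/- tumour than in WT tumour.
Spred2 was lower in WT tumour than in WT healthy, log2 -1.08 (-1.91 to -0.29), but not called in the larger endothelial cluster alone, at -0.83 (-1.87 to 0.17).
Spred1, at 66.2, 57.8 and 76.0 CPM, was called in neither comparison.
Thus 3 of 6 members were called over WT healthy beside 11.7% of all genes, and 2 of 6 between the tumour libraries beside 7.82%.
Endothelial cells formed 2 clusters. In the larger one (193, 234 and 332 cells) Dusp6 stood at 156, 351 and 121 CPM and Spry4 at 38.4, 143 and 67.6 CPM, and both genes were called in both comparisons there. In the smaller one, the 52 cells of PPARg-/- tumour held 38.5 CPM of Dusp6, 69.3 of Spry4 and 92.4 of Spred2.
Genes of the dissociation response, which tissue digestion can induce, differed as well. Their summed level in endothelial cells was 4190, 4426 and 2739 CPM, with 4 of 16 higher and 5 lower over WT healthy, and 8 of 16 lower in PPARg-/- tumour than in WT tumour. The 4 higher genes (Fos, Junb, Egr1 and Ier3) were all among the 8 lower ones, the same course as Dusp6 and Spry4.
Egr1, an immediate-early ERK target on that list, stood at 64.4, 121 and 34.7 CPM in the same order of libraries. Dusp1, a stress-inducible phosphatase among the 5 lower over WT healthy, did not share this order, with 304, 165 and 156 CPM.
The part of the digestion response in the endothelial result was not tested.

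In the main and cycling macrophages Dusp5 and Dusp6 were lower in WT tumour than in WT healthy. The main macrophages are the cells of each library in its largest cluster of that kind: 895 WT healthy cells in cluster 11, 941 WT tumour cells in cluster 16 and 1160 PPARg-/- tumour cells in cluster 21. In the comparisons below a cluster number stands for those cells alone.
Clusters 11 and 16 raised 12 and 11 of 12 alveolar macrophage markers. Cluster 21 raised 6 of them and 7 of 12 interstitial macrophage markers, with Spp1, Fn1 and Apoe as leading genes, so that the clusters are compared by number.
Dusp5 stood at 127 CPM (121 to 134), 37.0 (34.0 to 40.3) and 20.6 (18.6 to 22.7), with no overlap. Cluster 16 over cluster 11 was log2 -1.78 (-1.92 to -1.63), and cluster 21 over cluster 16 was -0.85 (-1.04 to -0.66).
Dusp6 stood at 88.4 (83.2 to 94.0), 33.5 (30.6 to 36.6) and 29.5 CPM (27.1 to 32.0). It was lower in cluster 16 than in cluster 11, log2 -1.40 (-1.56 to -1.24), and short of 1.5-fold between clusters 21 and 16, at -0.18 (-0.36 to -0.00751). Cluster 16 also held 77 PPARg-/- tumour cells, with 91.9 CPM of Dusp6 (88 UMIs) and 45.9 CPM of Dusp5 (44 UMIs), beside 33.5 and 37.0 CPM in its WT tumour cells.
Spred1 was lower in cluster 16 than in cluster 11, log2 -0.62 (-0.95 to -0.30), and higher in cluster 21 than in cluster 16, 0.76 (0.47 to 1.05), at 15.6, 10.1 and 17.1 CPM.
Of the 6 members with enough UMIs, 4 were lower in cluster 16 than in cluster 11, beside 22.7% of all genes called and 15.5% called lower. The fourth was Spry1, at 6.82 and 2.91 CPM, log2 -1.23 (-1.80 to -0.68).
In cluster 21 over cluster 16, Spry2 (1.73 and 0.277 CPM, 34 and 4 UMIs) and Etv5 (4.21 and 1.11 CPM) were also called higher, so that 4 of 7 members differed beside 33.4% of all genes.
Free RNA from broken cells held 8.65 and 40.4 CPM of Spry2 and Etv5 in PPARg-/- tumour and 22.2 CPM of Spry1 in WT tumour, enough that 10% of it reaches at least 50% of the level in the macrophages. Those levels cannot be read as expression. With 10% free RNA subtracted the Spry1 ratio was -3.11.
Digestion genes differed too: 13 of 16 were lower in cluster 16 than in cluster 11, with a median log2 ratio of -1.22 beside -0.16 over all genes, and their summed level was 4096, 1887 and 2079 CPM. Their part was not tested.
Cycling macrophages (48 and 105 cells) also had lower Dusp5 and Dusp6 in WT tumour than in WT healthy, log2 -1.44 (-2.01 to -0.87) and -0.65 (-1.24 to -0.05), with 14 of 16 digestion genes lower.
With 19.2% of all genes called in cycling macrophages, 2 of 3 members were called. In interstitial macrophages none of 5 members was called in either comparison, beside 12.9% and 8.18% of all genes, but this rests on how the class was drawn. With each library clustered alone, 4 were called over WT healthy: Dusp5 lower at log2 -1.52 (main value -0.03), and Dusp6 at 0.77 (-0.26), Spred1 at 0.75 (0.52) and Etv5 at 0.82 (-0.36) higher. After thinning, Dusp6 was called lower between the tumour libraries at -1.54, where the main value was 0.36.

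In nonclassical monocytes the step in Dusp5 lay between the tumour libraries. WT tumour over WT healthy was log2 0.08 (-0.10 to 0.26), and the level was lower in PPARg-/- tumour, -1.30 (-1.46 to -1.13).
Dusp6 stood at 264, 243 and 190 CPM and was called in neither comparison, at -0.12 (-0.34 to 0.10) and -0.36 (-0.54 to -0.18).
Spred1 was higher at each step, at 62.2 CPM (49.1 to 77.8), 95.6 (81.1 to 112) and 146 (134 to 159), log2 0.62 (0.22 to 1.03) and 0.61 (0.35 to 0.88).
Spred2 was lower in PPARg-/- tumour than in WT tumour, log2 -0.69 (-1.21 to -0.17).
These were 1 of 4 members with enough UMIs over WT healthy, beside 10.2% of all genes, and 3 of 5 between the tumour libraries, beside 8.9%.
The summed level of digestion genes in these cells was 10872, 6227 and 6682 CPM, with 5 of 16 higher and 4 lower between the tumour libraries.
In classical monocytes, Dusp5 and Dusp6 were lower in WT tumour than in WT healthy, log2 -0.71 (-1.29 to -0.17) and -0.73 (-1.06 to -0.40), and 6 of 16 digestion genes were lower. Dusp5 was lower in PPARg-/- tumour than in WT tumour as well, -0.94 (-1.94 to -0.03). These were 2 of 3 and 1 of 3 members, beside 9.69% and 7.04% of all genes.
The Dusp5 result over WT healthy rests on the filters: with cells of at most 5% mitochondrial UMIs it was 0.20.
Dendritic cells had 5 members with enough UMIs and none called in either comparison, beside 15.1% and 6.88% of all genes. B cells had Dusp6 alone over WT healthy, not called, and no member with enough UMIs between the tumour libraries, beside 14.5% and 11.2%.

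In T cells Dusp5 was lower in WT tumour than in WT healthy in 3 of the 4 classes. In CD8 T cells it stood at 25.6 CPM (22 UMIs) and 4.84 (6 UMIs), log2 -2.41 (-4.00 to -1.06).
In T cells not marked CD8 it stood at 48.6, 15.7 and 13.1 CPM, log2 -1.63 (-2.35 to -0.96) over WT healthy, and Dusp6 at 15.2, 6.85 and 6.81 CPM, -1.15 (-2.35 to -0.07).
That class joins 2 clusters in unequal parts. In one (169, 386 and 593 cells) Dusp5 was 8.88, 10.9 and 7.85 CPM. In the other (361, 114 and 134 cells) it was 65.2, 30.2 and 34.3 CPM, log2 -1.11 (-2.16 to -0.20) over WT healthy. The class thus had a smaller ratio within the cluster that could be compared, and the share of that cluster differed between libraries. Dusp6 was 7.11, 8.20 and 5.89 CPM (4, 9 and 9 UMIs) in the first of these clusters. In the other it was 18.5, 2.75 and 10.5 CPM (25, 1 and 4 UMIs).
T cells with regulatory T cell markers held 141, 86.6 and 43.4 CPM of Dusp5, log2 -0.70 (-1.14 to -0.26) over WT healthy and -0.997 (-1.64 to -0.39) between the tumour libraries.
The same cells held the most Dusp4 in WT tumour, 39.6 CPM (28.7 to 53.4) from 43 UMIs beside 6 UMIs in WT healthy and 11 in PPARg-/- tumour, log2 1.99 (0.76 to 3.52) and -1.32 (-2.42 to -0.34).
CD8 effector T cells were called between the tumour libraries alone, with Dusp5 at 83.0 and 44.3 CPM, log2 -0.91 (-1.63 to -0.22), a result that turned to 0.14 with doublets kept. Over WT healthy their Dusp5 ratio was -0.38 and not called, but it was called lower with doublets kept (-0.88) and at 5% mitochondrial UMIs (-0.90), and higher with each library clustered alone (1.63). The Dusp4 values were not called with doublets kept, at 1.05 and -1.01.
The share of all genes called over WT healthy was 9.73% in T cells not marked CD8, 10.2% in CD8 T cells, 8.65% in CD8 effector T cells and 11.6% in T cells with regulatory markers. Between the tumour libraries it was 4.5%, 4.3%, 5.86% and 7.54%.
In WT tumour the Dusp5 level in CD8 T cells and the Dusp6 level in T cells not marked CD8 were low enough that 10% of the free RNA reaches 50% of them.
In these classes 4 to 7 of the 14 or 15 digestion genes with enough UMIs were lower in WT tumour than in WT healthy, and none was higher. Their part was not tested.

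**Figure D3:**
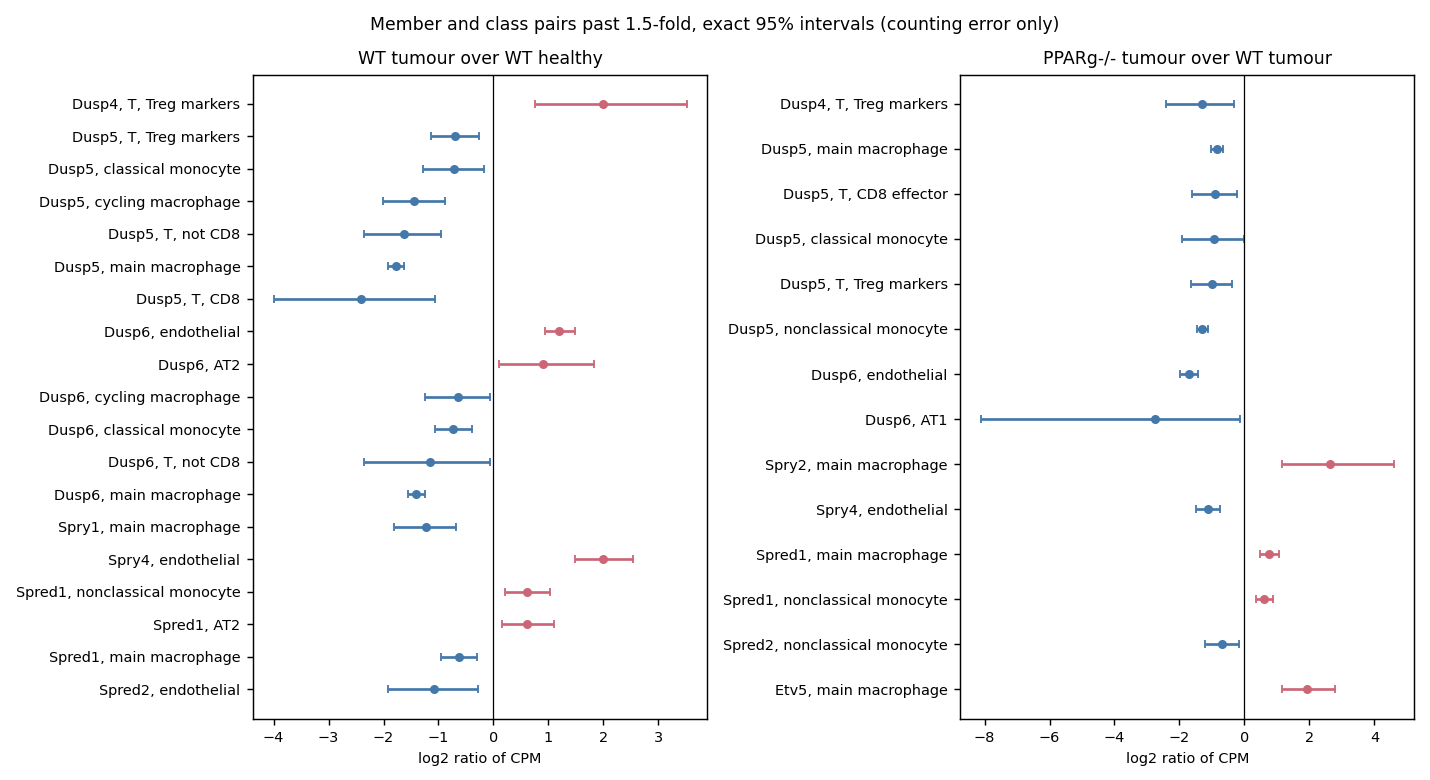
Log2 ratios of CPM (x axis) with exact 95% intervals for every member and class pair called in each comparison; red higher, blue lower. Dusp5 lies left of 0 in each of its pairs in both panels, and Dusp6 and Spry4 in endothelial cells lie on opposite sides in the 2 panels.

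By gene, Dusp5 was called lower in 6 of 11 classes with enough UMIs over WT healthy and in 5 of 9 between the tumour libraries, and higher in none.
Dusp6 was higher in 2 and lower in 4 of 12 classes over WT healthy, and lower in 2 of 11 between the tumour libraries.
Spred1 was higher in 2 and lower in 1 of 10 classes, and then higher in 2 of 9. Etv4, in AT2 cells alone, had enough UMIs and was not called. Of all gene and class pairs, 5.61% were higher and 7.91% lower over WT healthy, and 4.88% and 5.74% between the tumour libraries. The number of classes called per gene was not counted over all genes.

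The other genes of the pathway were counted by lists in all AT2 cells, with those of the subcluster that raised markers of other lineages kept. Of all genes 13.2% were called there over WT healthy and 8.63% between the tumour libraries. Of the EGFR ligands and receptors 8 of 13 had enough UMIs, and 5 were higher in WT tumour than in WT healthy: Areg, Ereg, Hbegf, Btc and Egfr.
The growth factor gene Areg stood at 41.2 and 211 CPM, log2 2.35 (1.54 to 3.31), and Hbegf at 13.7 and 88.9 CPM, 2.69 (1.32 to 4.58). Ereg and Btc had 0 UMIs in WT healthy and 67 and 42 in WT tumour.
Erbb3, which encodes an EGFR partner, was near level at 72.2 and 75.2 CPM, log2 0.06 (-0.59 to 0.78). Erbb2 differed by 0.65 (-0.44 to 2.00) and Tgfa by 0.34 (-1.11 to 2.28).
In PPARg-/- tumour over WT tumour 4 of 8 were lower and none higher: Areg at -1.20 (-1.43 to -0.98), Hbegf at -0.91 (-1.23 to -0.58), Btc at -1.14 (-2.02 to -0.31) and Erbb2 at -0.71 (-1.19 to -0.23). Egfr was not called, at -0.48 (-0.84 to -0.13).
Of the core cascade, 3 of 18 genes were higher over WT healthy (Hras, Map2k2 and Mapk3) and 3 of 18 lower between the tumour libraries (Gab1, Sos1 and Map2k1), shares near those of all genes.
Of other feedback genes, Dusp7 and Dusp16 were higher and Dusp3 and Cbl lower of 12 over WT healthy, and Dusp1 and Spred3 were lower of 13 between the tumour libraries. Errfi1, an EGFR inhibitor, was called in neither, at -0.20 (-0.57 to 0.19) and -0.27 (-0.46 to -0.09).
Of other transcriptional outputs, Etv1, Ccnd1 and Egr1 were higher and Fos lower of 9 over WT healthy, and Fos alone was lower of 11 between the tumour libraries.
Egr1 stood at 17.2, 119 and 82.0 CPM and Ccnd1 at 223 and 524 CPM in WT healthy and WT tumour. Etv1, an ETS factor of the same group as Etv4 and Etv5, had 0 and 85 UMIs.
The digestion genes in AT2 cells were 3 higher and 3 lower of 16 over WT healthy, and 4 lower between the tumour libraries, with summed levels of 1722, 1706 and 1337 CPM.

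In the main macrophages, 7 of 10 other transcriptional outputs were lower in cluster 16 than in cluster 11 (Phlda1, Ccnd1, Myc, Ier3, Egr1, Fos and Emp1) and Epha4 was higher. Of other feedback genes, 5 of 12 were lower: Dusp1, Dusp2, Dusp16, Errfi1 and Nf1. Of all genes 15.5% were lower there. Fos, Ier3, Egr1 and Dusp1 are also digestion genes.
Egr1 stood at 155, 5.82 and 37.7 CPM. Of the core cascade 3 of 19 were lower (Shc1, Sos1 and Ksr1), and of 5 ligands and receptors Areg was higher and Ereg and Nrg4 were lower.
In cluster 21 over cluster 16, 6 of 12 outputs were higher (Etv1, Ccnd1, Ier3, Egr1, Emp1 and Kcnn4) and Phlda1 was lower, beside 33.4% of all genes called. Of other feedback genes 4 of 13 were higher (Dusp2, Dusp7, Spred3 and Nf1), and of the core cascade Ksr1 was higher and Nras, Braf, Map2k1, Mapk3 and Rps6ka1 were lower of 19.
Dusp7, a cytoplasmic ERK phosphatase like Dusp6, was higher in that comparison, at 58.7 and 25.3 CPM, log2 1.21 (1.04 to 1.39), beside the lower Dusp5.

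Single cells were read by how many members they held. After each cell was thinned to 5000 UMIs, AT2 cells held a UMI of 2.92, 2.85 and 2.79 of the 10 members on average (SD over cells 1.22, 1.24 and 1.29; 25, 166 and 162 cells deep enough, with 16, 11 and 7 left out).
Main macrophages held 0.851, 0.384 and 0.361 members, endothelial cells 1.42, 1.73 and 1.21 (72, 81 and 76 cells, with 148, 168 and 308 too shallow) and Krt8-high cells of WT tumour 2.02.
Etv5 was seen in 84.0%, 72.9% and 75.9% of the AT2 cells and in 0.916%, 0.756% and 2.02% of the main macrophages. Unthinned median depths were 7442, 14006 and 13196 UMIs in AT2 cells and 12827, 14890 and 16493.5 in macrophages.
Spred1 was seen in 56.0%, 59.0% and 61.1% of the AT2 cells, Spry1 in 60.0%, 36.1% and 43.2%, and Dusp6 in 24.0%, 33.1% and 32.1%.
In main macrophages Dusp5 was seen in 43.3%, 14.8% and 9.32% of cells, beside 0%, 3.61% and 2.47% of AT2 cells, which hold little of it.

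**Figure D4:**
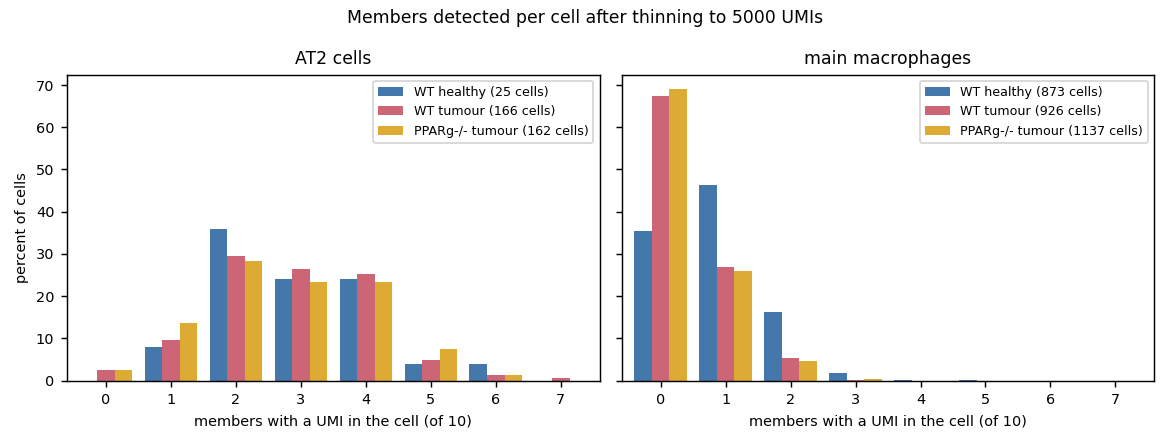
Percent of cells (y axis) by the number of members with a UMI (x axis) after thinning to 5000 UMIs, in AT2 cells and main macrophages of the 3 libraries. The AT2 distributions of the libraries lie over each other near a mean of 2.79 to 2.92, and macrophages with none make up 35.5% in WT healthy and 67.4% and 69.0% in the tumour libraries.

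Over the 44 class and library units of at least 30 cells, the genes whose log2(CPM + 10) followed a member most closely were listed. This is a description over units that share libraries.
Etv5 was most like Hc (Pearson r = 0.93), Mlc1 (0.93) and Slc26a9 (0.93), of 8863 genes ranked, and Hc was on the AT2 marker list.
Spry1 was most like Gja1 (0.96), Rasl11a (0.95) and Slc39a8 (0.95), and Spry4 like Unc5b (0.95), Ntn1 (0.94) and Tmem252 (0.94).
Dusp6 was most like Tnfrsf1a (0.89), Ifitm2 (0.85) and Zfyve9 (0.82), Spred1 like Zfhx3 (0.88), Tnrc18 (0.86) and Tbc1d8 (0.82), and Dusp5 like Flna (0.83), Nabp1 (0.82) and Samsn1 (0.81).
Spry2 was most like Ralgapa2 (0.87), Serpinb6b (0.85) and Serpinb9 (0.84). Spred2 had no close match, with Sh3rf1 first at 0.60. Dusp4 and Etv4 were too rare to rank.
Between members, r ran from -0.42 for Dusp5 with Spry1 to 0.72 for Spry1 with Spry2, with 0.18 for Dusp5 with Dusp6 and 0.60 for Dusp6 with Spred1.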

How the data were processed

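Raw UMI counts were deposited by the authors as 1 gene by barcode matrix for each of 3 libraries, with 32285 genes. Cell Ranger 6.0.1, Seurat 4.0.1 and mm10 are named per the submitters' processing notes, whereas Cell Ranger 4 is named per the file headers. Chemistry is version 2 of the 3' kit per the labels, and the files list 6794880 barcodes.

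A cell needed 1000 UMIs, 500 genes and no more than 10% mitochondrial UMIs. Scrublet (scanpy 1.11.5, expected rate 6%) marked 53, 106 and 142 of 2947, 4374 and 5137 barcodes (1.80%, 2.42% and 2.76%), and these were removed. Leiden clusters (resolution 1.0, 30 components, 15 neighbours, 2000 variable genes without the members and pathway genes) joined the 3 libraries, and epithelium was clustered again at 0.6. A marker was called raised where its level was 4-fold that of the median cluster, with a UMI in 10% of cells, and a name took 3 such markers. Main macrophages are each library's largest non-cycling cluster with 5 or more raised alveolar markers, a rule set after the data were seen. Free RNA came from barcodes of 10 to 100 UMIs. Ratios have exact 95% conditional binomial intervals. The ratio calls were also run on simulated Poisson counts. These hold no differences between cells or mice, so that run cannot show how the calls fare where such differences exist. Gene positions are from GENCODE.

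Members and lists were chosen with earlier results of these data known. All 10 members are described. Other pathway genes are named only if called in AT2 cells or main macrophages, or if on a set list (Egfr, Erbb2, Erbb3, Erbb4, Areg, Hbegf, Tgfa, Dusp1, Errfi1 and Egr1). Like genes are the 3 highest correlations among genes of 50 CPM in a unit, for members with 20 UMIs in at least 5 units. The alternatives tried are named in the closing section.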

Additional observations from a re-analysis of the deposited data

Results flagged for a closer look

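Dusp6 and Spred1 were on opposite sides of WT healthy in different classes of the same WT tumour library. These differences between classes were not tested.

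Dusp6 was higher in WT tumour in AT2 cells (log2 ratio 0.91) and in endothelial cells (1.20), and lower in main macrophages (-1.40), cycling macrophages (-0.65), classical monocytes (-0.73) and T cells not marked CD8 (-1.15). The AT2 value was not called without the subcluster that raised markers of other lineages (0.72), and was called among AT2 cells with no UMI of Ptprc or Pecam1 (0.93). The endothelial and main macrophage values were called under every alternative tried that changed those cells. Counting also alternatives that left the cells untouched, the classical monocyte value was called in 13 of 14 with a value. The values in cycling macrophages and in T cells not marked CD8 were each called in 7 of 12, and both were lost with 10% free RNA subtracted and with median-ratio scaling.

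Spred1 was higher in AT2 cells (0.61) and in nonclassical monocytes (0.62), and lower in main macrophages (-0.62). The AT2 value was called neither without that subcluster (0.44) nor among AT2 cells with no UMI of Ptprc or Pecam1 (0.40).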

How the results depend on the processing

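No paired analysis was possible because each group is 1 library. Of the alternatives that keep the call rule, some leave a class untouched and then say nothing of it. Dusp6 and Spry4 in endothelial cells were called in both comparisons in every alternative that gave a value. Between the tumour libraries, so were Dusp5 in nonclassical monocytes and Spry2 in main macrophages. Over WT healthy, so were Dusp5, Dusp6 and Spry1 in main macrophages. The same held over WT healthy for Dusp5 in cycling macrophages, CD8 T cells and T cells not marked CD8. Of these, Spry1 in main macrophages and Dusp5 in CD8 T cells were low enough in WT tumour to be open to free RNA. Dusp5 in CD8 T cells had a value in only 9 alternatives. Of 33 called pairs, 19 remained among the 26 with a value at 5% mitochondrial UMIs and 10 among the 20 with a value after thinning each cell to 1000 UMIs, where UMIs were few. Dusp5 reversed to 0.20 in classical monocytes (WT tumour over WT healthy, 5% mitochondrial UMIs) and to 0.14 in CD8 effector T cells (between the tumour libraries, doublets kept); the causes were not tested. In CD8 effector T cells over WT healthy, Dusp5 was not called (-0.38), but was called higher, at 1.63, with each library clustered alone. Spry2 in main macrophages between the tumour libraries is open to free RNA, which held 19.9 CPM in WT tumour beside 0.277 CPM in the cells, and gave no value with free RNA subtracted.

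For WT tumour over WT healthy (19 pairs called, 6 higher and 13 lower), thinning gave 8 pairs, 3 higher and 5 lower, and a 2-fold call gave 11, 3 higher and 8 lower. The higher pairs were 3 with doublets kept, 3 at 5% mitochondrial UMIs and 12 with each library clustered alone. AT2 calls, 2 in all cells (Dusp6 and Spred1), were 1 after thinning (Etv5, lower) and 0 at 2-fold, without the subcluster with markers of other lineages they were Spry1 and Etv5, both lower, and in cells with no Ptprc or Pecam1 UMI they were Dusp6, higher, and Etv5, lower. For PPARg-/- tumour over WT tumour (14 pairs, 4 higher and 10 lower), thinning gave 4, 0 higher and 4 lower, and a 2-fold call gave 7, 2 higher and 5 lower. The higher pairs were 2 at resolution 2.0 and 2 with free RNA subtracted. AT2 calls, 0 in the main setting, were 1 at resolution 2.0 (Dusp5) and 1 with libraries clustered alone (Spry2).

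Members highest in an epithelial class in WT healthy were 4, and 0 with doublets kept, at 5% mitochondrial UMIs, at 2000 UMIs or at resolution 2.0, where fewer than 30 WT healthy AT2 cells were left and the AT2 comparison gave no value, and 2 after thinning. Depth limits Etv4 and Spry4 in WT healthy AT2 cells. The alternatives on other-lineage RNA in AT2 cells, with the larger endothelial cluster alone and with the T cell clusters apart were chosen after seeing the data.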

Other observations

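In the main macrophages, Etv1 and Kcnn4 stood out among the pathway outputs. Etv1, an ETS factor related to Etv4 and Etv5, had 1 UMI in 941 WT tumour cells and 278 UMIs in 1160 PPARg-/- tumour cells, 0.0692 and 14.1 CPM, log2 7.67 (5.18 to 12.98). Kcnn4, which encodes a calcium-activated potassium channel, had 3 and 1081 UMIs, 0.208 and 54.9 CPM, log2 8.05 (6.49 to 10.3). Etv4 in the same cells had 1 and 0 UMIs. Of 7 EGFR family ligands and receptors there, 3 were higher (Ereg, log2 0.81; Hbegf, 2.34, at 0.623 and 3.15 CPM; Nrg1, 3.38) and 2 lower (Nrg4, -2.66; Erbb3, -1.21), beside 33.4% of all genes called.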
